A study of Mus musculus with 11 samples.

Results

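The miR-34 family was taken by name from a table of small RNA sequencing of mouse embryonic stem (mES) cells. All 6 mature miRNAs of the family, the 5p and 3p arms of miR-34a, miR-34b and miR-34c, were listed among 592 miRNAs. The study asked how miRNA expression differs between 2 genotypes of mES cells, with and without Trim71, an RNA-binding protein of the TRIM-NHL family that is itself a target of let-7. All cells were male C57BL/6 mES cells with floxed Trim71 alleles and a Cre recombinase that is switched on by 4-hydroxytamoxifen (4-OHT), they were grown with serum and LIF, and they were sorted magnetically for the stem cell marker SSEA-1 before lysis. The labels, which spell the genotypes Trim-/- and Trimfl/fl, give 500 nM 4-OHT during 2 days for the Trim71-/- cells and at least 7 further days of culture, whereas the Methods of the study give a lower dose, a shorter culture and the solvent DMSO for the Trim71fl/fl cells. The labels name no treatment for the Trim71fl/fl cells, so that exposure to 4-OHT and the deletion cannot be told apart, and the table lists miRNAs only, so that loss of the Trim71 mRNA was not measured in these libraries.

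Of the 11 libraries, 10 form 5 same-day pairs of 1 Trim71-/- and 1 Trim71fl/fl library of the same clone. Clone 1 gave the pairs of days 1, 5 and 6, and clone E3 those of days 3 and 4, so that each clone is 1 derived line and every day belongs to 1 clone. No label says whether the days are separate cultures, and the p-values below measure the spread between these samples only. The values are read counts that the authors normalized, corrected for batch and raised to 1 where they were lower. The authors kept a miRNA where the larger of its group means was at least 10, which holds for all 592, and 49 of them, among them 1 of the 6 members, miR-34b-5p, reach 10 in 1 genotype only. The values are not raw counts, so the depth is unknown and no counting interval can be given for them. After this correction the same-day values of both genotypes add up to 1 constant per miRNA, to within 0.1% in 591 of the 592 miRNAs and in all 6 members of the family, where neither value is at the floor. A value that is high in one genotype is therefore low in its partner by construction, and each pair holds 1 independent number, its difference. The unpaired Trim71fl/fl library of day 2, of clone E3, equalled the mean that the other Trim71fl/fl libraries had before that floor, in 592 miRNAs, and was left out. Values before the floor are not given by the authors. Each was inferred here as the constant same-day sum of its miRNA less the value of the partner library, and can be negative. The sums of the values ran from 3751519 to 5551715 in the Trim71-/- libraries and from 2742673 to 4332525 in the Trim71fl/fl libraries, and the largest and the smallest sum were the pair of day 5. The 14 listed miRNAs of the miR-290 to miR-295 cluster, which marks mES cells, made up 54.0% to 58.0% of the sum in Trim71-/- and 55.2% to 57.8% in Trim71fl/fl libraries. The 9 listed miRNAs of the miR-302 and miR-367 hairpins, active in pluripotent cells of a later stage, made up 0.191% to 0.344% and 0.360% to 0.651%. Markers of other cells each summed to under 1% of a library. Fibroblast markers were above miR-302 and miR-367 in Trim71-/- libraries, and in Trim71fl/fl libraries the ranges overlapped. The summed shares of the neural list, as of miR-302 and miR-367, did not overlap between genotypes. Of all single miRNAs 11.5% do not overlap on the deposited values, which is another scale than shares of the library sum. Of the neural list 2 of 3 miRNAs were listed (miR-124-3p and miR-9-5p, 0.0856% to 0.0948% in Trim71-/-, 0.0513% to 0.0792% in Trim71fl/fl), 3 of 4 of fibroblasts (0.352% to 0.708% and 0.468% to 0.812%) and 2 of 3 of blood (0.00734% to 0.0344% and 0.0292% to 0.0783%), while the liver marker miR-122-5p reached at most 0.000700%. The part of other cells in the miR-34 values was not tested.

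The tumour suppressor p53 binds upstream of the miR-34 genes and activates their transcription when DNA is damaged or when cells are stressed. miR-34a comes from a gene of its own, and miR-34b and miR-34c are cut from a shared transcript. The 5p arms enter Argonaute and repress mRNAs that drive the cell cycle and block apoptosis, among them those of Cdk6, Ccne2, Met and Bcl2, and in pluripotent cells and reprogramming miR-34a is known as a brake on Nanog, Sox2 and Mycn. The miR-449 miRNAs, best known from multiciliated cells, have the same seed, the stretch of bases 2 to 8 that pairs with targets.

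On GRCm38 (mm10, the build of the study), the Mir34a hairpin lies on the plus strand at chr4:150068454-150068555, within an exon of Gm37795, a gene model of the same strand that awaits experimental support, and the nearest protein-coding gene, Gpr157, is 18810 bases away. Mir34c (chr9:51103034-51103110) and Mir34b (chr9:51103562-51103645) lie 451 bases apart on the minus strand, within an intron of Btg4, which runs on the opposite strand. Mature sequences from RefSeq (GRCm38.p6) were matched for 5 of the 6 members, all but miR-34c-5p. They are printed 5′ to 3′ with the seed in capitals, because the seeds decide which rows of the table can act on the same targets.
miR-34a-5p: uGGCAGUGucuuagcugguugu
miR-34b-5p: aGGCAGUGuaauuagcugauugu
miR-449a-5p: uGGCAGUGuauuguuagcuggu
miR-34a-3p: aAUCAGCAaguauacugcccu
miR-34b-3p: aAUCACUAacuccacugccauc
miR-34c-3p: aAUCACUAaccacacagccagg

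Among the 463 listed miRNAs with a sequence, the seed GGCAGUG was held by miR-34a-5p, miR-34b-5p and miR-449a-5p alone, and AUCACUA by miR-34b-3p and miR-34c-3p alone. miR-34c-5p had no matched sequence, so its seed was not among those compared. The seed of miR-34a-3p, AUCAGCA, was shared with no other. Set against each other from the 5′ end without gaps, miR-34b-3p and miR-34c-3p were identical at 17 of 22 bases, miR-34a-5p and miR-449a-5p at 15 of 22, and miR-34a-5p and miR-34b-5p at 11 of 22. How reads that fit more than 1 of these related miRNAs were counted is not given in the sources used here, and the division of reads between the closest relatives is uncertain to that extent.

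The family was carried by 2 of its 6 miRNAs. miR-34c-5p and miR-34a-5p, the guide arms of their hairpins, were the highest members in 10 of 10 libraries and made up 95.1% to 97.4% of the family's summed value. The mean over the 10 libraries was 2051 normalized read counts for miR-34c-5p and 1644 for miR-34a-5p, which ranked 98 and 108 among the 592 miRNAs. miR-34c-5p was above miR-34a-5p in 8 libraries, in 5 of 5 Trim71-/- and 3 of 5 Trim71fl/fl libraries, so that the order of the leading pair did not hold in every library. miR-34b-3p followed at 67.3 (rank 374) and came after the leading pair in 9 libraries. miR-34c-3p (36.5, rank 437) was below it in 9 libraries and above miR-34a-3p in 9. The lowest neighbours, miR-34a-3p (19.6, rank 502) and miR-34b-5p (14.1, rank 534), had no fixed order, with miR-34a-3p the higher in 5 of 10 libraries. The mature sequences at hand are 21 to 23 bases long, so levels were compared without a correction for length.

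**Figure D1:**
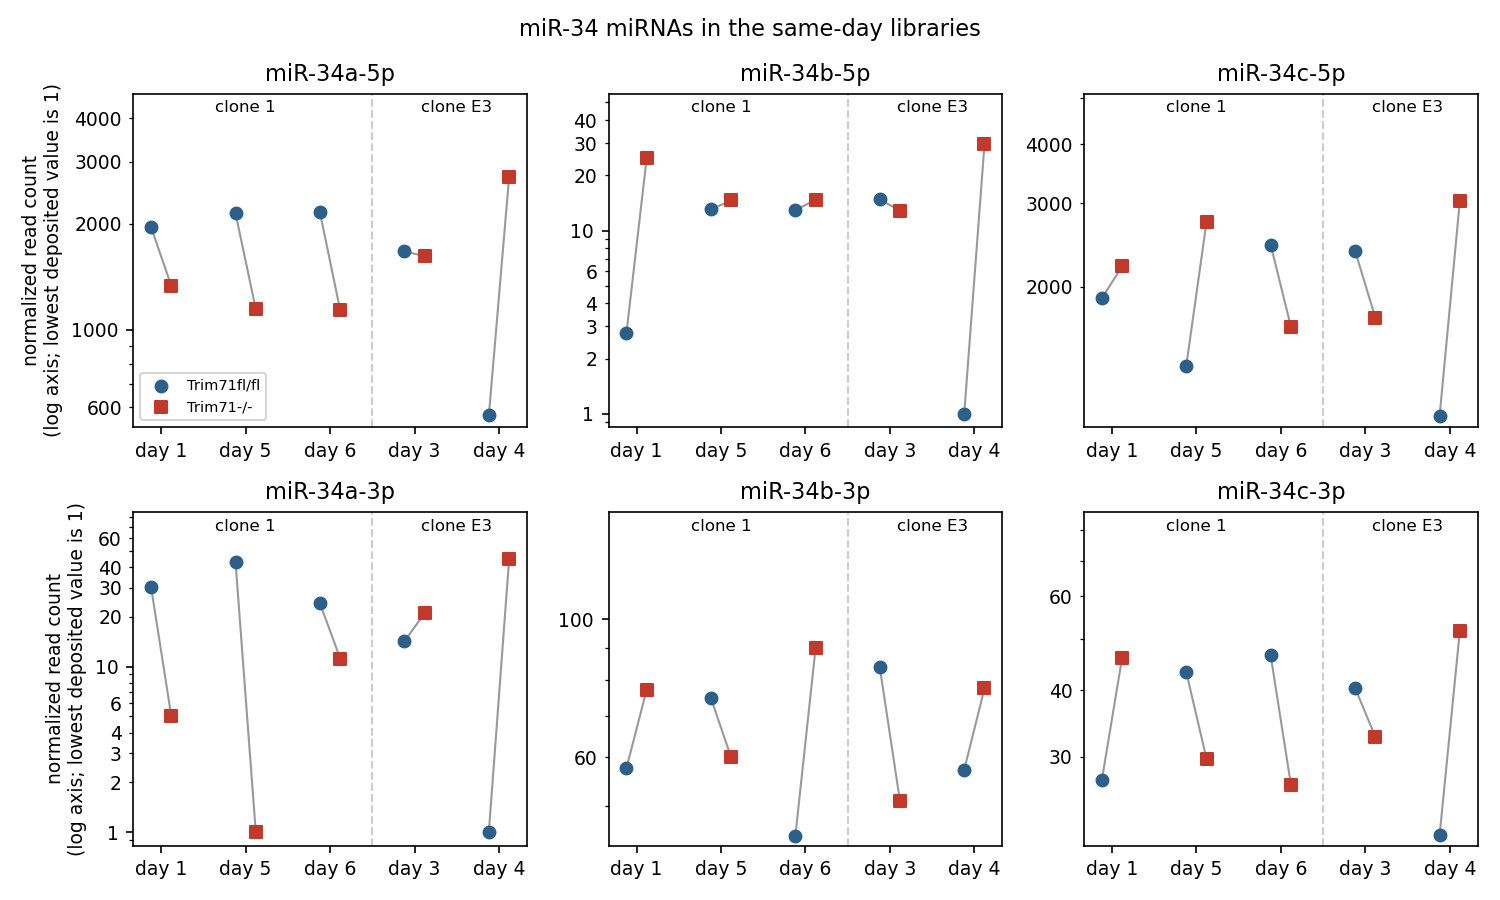
Normalized read counts (log axis, a separate range per panel) of the 6 miR-34 miRNAs in the 10 paired libraries, with a line joining the Trim71fl/fl (circle) and Trim71-/- (square) library of each day. The genotypes overlap in every panel, and day 4 has the lowest Trim71fl/fl value of miR-34a-5p (570), miR-34c-5p (1066) and miR-34c-3p (21.3).

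miR-34a-5p, the guide arm of miR-34a, did not differ between genotypes beyond the spread of the pairs. In the order of days 1, 3, 4, 5 and 6, its value was 1330, 1617, 2718, 1143 and 1133 in Trim71-/- cells and 1958, 1671, 570, 2144 and 2154 in Trim71fl/fl cells. It was lower in Trim71-/- on 4 of 5 days, nearly level on day 3, and higher on day 4 alone, where the Trim71-/- library had the highest value of all and the Trim71fl/fl library the lowest. The means were 1588 ± 661 and 1699 ± 661 (SD, n = 5 each), and the log2 fold change was -0.04 ± 0.53 (SE; 95% interval -1.33 to 1.26; limma, Benjamini-Hochberg adjusted p = 0.990). The exact two-sided permutation of genotypes within the 5 days gave p = 0.9375, where 32 sign patterns allow no p under 0.0625. Without the pair of day 4 the log2 fold change was -0.61, and without day 5 or day 6 it turned to 0.18 and 0.19. After division by the library sum it was -0.31.

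miR-34a-3p, the passenger arm, had the widest scatter of the family on the log2 scale, with the largest SE of the 6. Its values were 5.01, 21.1, 44.6, 1 and 11.2 in Trim71-/- and 30.4, 14.3, 1, 43.0 and 24.1 in Trim71fl/fl cells, again in the order of days 1, 3, 4, 5 and 6. The values of 1, in Trim71-/- on day 5 and Trim71fl/fl on day 4, are at the floor, so that the log2 differences of those days depend on it. The arm was lower in Trim71-/- on all days of clone 1 and higher on both days of clone E3. Over all pairs the means were 16.6 ± 17.4 and 22.6 ± 15.9 (SD, n = 5), and the log2 fold change was -0.57 ± 1.25 (SE, interval -3.61 to 2.48, limma, Benjamini-Hochberg adjusted p = 0.861, exact permutation p = 0.75). It became 0.41 when day 5 was left out and -1.84 when day 4 was.

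miR-34b-5p had the largest fitted difference of the 6, which did not pass the test. Its values on days 1, 3, 4, 5 and 6 were 24.9, 12.8, 29.5, 14.6 and 14.7 in Trim71-/- cells against 2.75, 14.8, 1 (the floor), 13.0 and 12.9 in Trim71fl/fl cells. The difference sat on days 1 and 4, while on days 3, 5 and 6 the genotypes were within 2 normalized read counts of each other. The means were 19.3 ± 7.43 and 8.89 ± 6.48 (SD, n = 5), a log2 fold change of 1.37 ± 0.71 (SE, interval -0.37 to 3.11, limma p = 0.102, Benjamini-Hochberg adjusted p = 0.607, exact permutation p = 0.25). miR-34b-5p reaches the filter of 10 by its Trim71-/- mean alone, though its mean over the 10 libraries, 14.1, is also above 10. Its log2 fold change was 0.73 when day 4 was left out and 0.68 with a pseudocount of 10 in place of 1. Without the pairing by day the same log2 fold change of 1.37 had an unadjusted limma p of 0.0462. That fit treats the mirrored libraries of a day as independent. Division of each library by its sum turned the small differences of days 5 and 6 to -0.80 and -0.02 on the log2 scale.

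miR-34b-3p, the more abundant arm of miR-34b, had the smallest SE of the 6. Its values were 77.0, 50.9, 77.4, 59.9 and 89.9 in Trim71-/- and 57.6, 83.7, 57.2, 74.7 and 44.7 in Trim71fl/fl cells. It was higher in Trim71-/- on days 1, 4 and 6 and lower on days 3 and 5. The means of 71.0 ± 15.5 and 63.6 ± 15.5 (SD, n = 5) gave a log2 fold change of 0.16 ± 0.33 (SE, interval -0.64 to 0.96, limma, Benjamini-Hochberg adjusted p = 0.845, exact permutation p = 0.625), and -0.10 after division by the library sum. It became -0.045 when day 6 was left out.

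miR-34c-5p, the most abundant member, had values of 2210, 1721, 3036, 2740 and 1648 in Trim71-/- and 1892, 2381, 1066, 1361 and 2454 in Trim71fl/fl cells. It was higher in Trim71-/- on days 1, 4 and 5 and lower on days 3 and 6, and day 4 had the highest value in Trim71-/- and the lowest in Trim71fl/fl. Its means were 2271 ± 612 and 1831 ± 612 (SD, n = 5), with a log2 fold change of 0.34 ± 0.40 (SE, interval -0.63 to 1.31, limma, Benjamini-Hochberg adjusted p = 0.720, exact permutation p = 0.5), which was 0.048 without the pair of day 4 and 0.07 after division by the library sum. The difference of day 5, 1.01 on the log2 scale, became -0.01 after division by the library sum, and the median of all miRNAs on that day moved from -0.01 to -1.002.

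miR-34c-3p was measured at 46.0, 32.7, 51.7, 29.8 and 26.5 in Trim71-/- and 27.1, 40.3, 21.3, 43.3 and 46.5 in Trim71fl/fl cells. It was higher in Trim71-/- on days 1 and 4 and lower on the other 3 days. The means of 37.3 ± 10.9 and 35.7 ± 10.9 (SD, n = 5) gave a log2 fold change of 0.07 ± 0.39 (SE, interval -0.87 to 1.02, limma, Benjamini-Hochberg adjusted p = 0.945, exact permutation p = 0.9375), and -0.19 after division by the library sum. It became -0.09 when day 1 was left out and -0.22 when day 4 was.

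None of the 6 miRNAs passed the thresholds used in the study (over 1.5-fold and an unadjusted p under 0.05), against 32 of 592 miRNAs in all (5.41%), and none had an unadjusted p under 0.05. No miRNA of the table had a limma Benjamini-Hochberg adjusted p under 0.05 (32 had an unadjusted p under 0.05, and the smallest adjusted p was 0.607). The intervals still leave room for changes of over 1.5-fold in either direction in each member except miR-34b-5p, whose interval holds only small decreases. None of the 6 kept its genotypes apart, against 11.5% of all miRNAs, and the share whose direction was the same on all 5 days is also 11.5%, since the equal same-day sums make both counts the same. The median fitted log2 fold change was 0.12 over the family, with 4 positive and 2 negative, and 0.03 over all miRNAs. Division by the library sum moved the median of all miRNAs to -0.24.

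**Figure D2:**
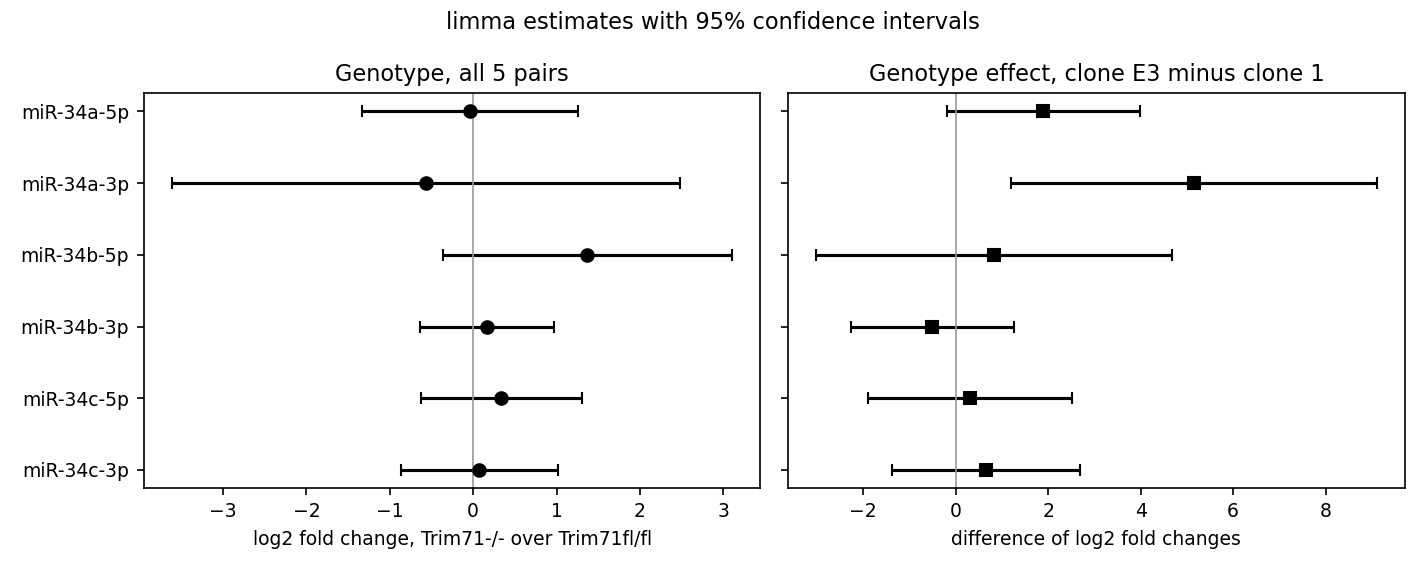
Fitted differences of the 6 miR-34 miRNAs with 95% confidence intervals from limma, over all 5 pairs (left, log2 fold change of Trim71-/- over Trim71fl/fl) and between clones (right, genotype effect in clone E3 minus that in clone 1). Every interval on the left includes 0, and on the right that of miR-34a-3p (1.20 to 9.10) does not.

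The pairs differed more from day to day than the genotypes did on average. On day 4, 5 of 6 members were higher in the Trim71-/- library by over 1.5-fold, against 26.5% of all miRNAs, and none was lower, against 28.4%. The log2 differences of that day were 2.25 for miR-34a-5p, 4.51 for miR-34a-3p, 3.93 for miR-34b-5p, 0.43 for miR-34b-3p, 1.51 for miR-34c-5p and 1.24 for miR-34c-3p, with a median of 0.01 over all miRNAs. The Trim71fl/fl values of miR-34a-3p and miR-34b-5p were at the floor that day, so that the size of their rises depends on it. In the whole table, 20 miRNAs had a larger rise on that day than miR-34a-5p, 46 than miR-34c-5p and 68 than miR-34c-3p. For miR-34b-3p it was 192, and for the floored miR-34a-3p and miR-34b-5p 2 and 4. Day 4 is 1 pair of libraries with no replicate check, and division by the library sums left all 6 differences of day 4 positive (0.63 to 4.67). On day 1, 2 members were higher by over 1.5-fold (19.6% of all miRNAs) and 1 was lower (27.9%). On day 3, in the same clone as day 4, none was higher (16.4%) and 1 was lower (17.4%). On day 5, 1 was higher (32.8%) and 2 were lower (28.5%), and on day 6, 1 was higher (22.0%) and 3 were lower (23.1%). Outside day 4 the shares of the family lie on both sides of those of all miRNAs.

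**Figure D3:**
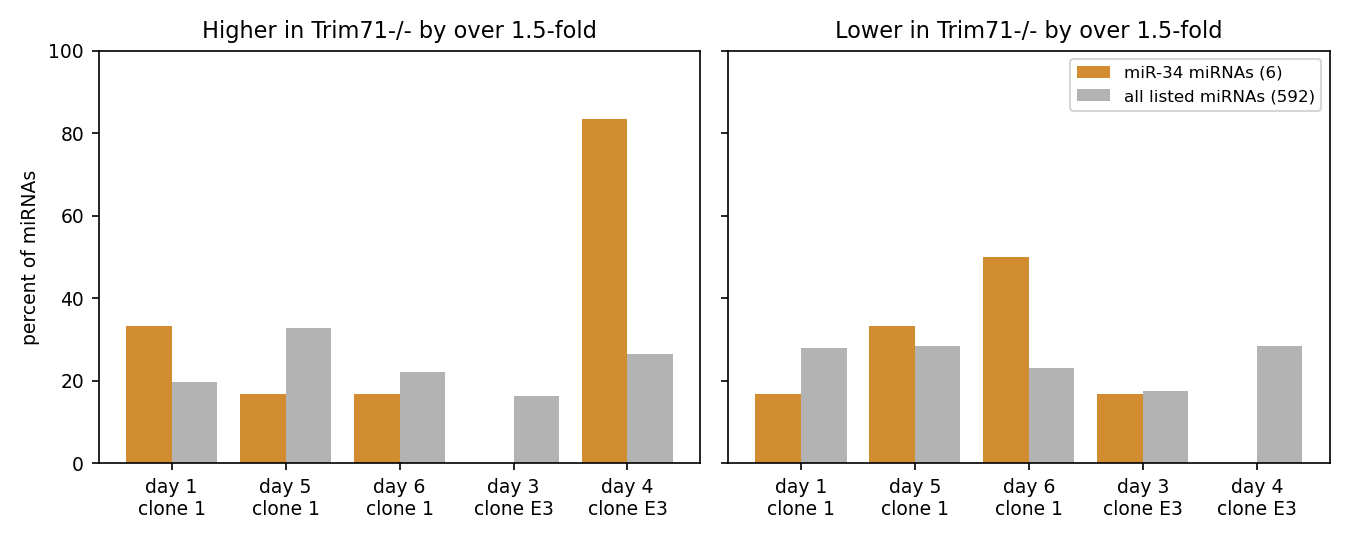
Percent of the 6 miR-34 miRNAs and of all 592 listed miRNAs that were higher (left) or lower (right) in Trim71-/- than in Trim71fl/fl cells by over 1.5-fold on each day. On day 4 the bars on the left stand for 5 of 6 members and 26.5% of all miRNAs.

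The genotype effects of the clones were compared next, because the labels give the pairs to 2 clones. The levels of the clones themselves cannot be compared, since the same-day sums are equal on all days. In clone 1 miR-34a-5p was lower in Trim71-/- on 3 of 3 days, by 0.56, 0.91 and 0.93 on the log2 scale, a fitted change of -0.80 ± 0.52 (SE). In clone E3 it was 1.10 ± 0.64 (SE), the mean of -0.05 on day 3 and 2.25 on day 4. The difference between the clones was 1.90 ± 0.83 (SE, interval -0.19 to 3.99, limma p = 0.0673, Benjamini-Hochberg adjusted p = 0.627, exact permutation p = 0.1).

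For miR-34a-3p the fitted change was -2.63 ± 0.99 (SE) in clone 1 and 2.52 ± 1.21 (SE) in clone E3. Their difference of 5.15 ± 1.56 (SE, interval 1.20 to 9.10) had an unadjusted limma p of 0.0199 and a Benjamini-Hochberg adjusted p of 0.627. It was the only member with an unadjusted p under 0.05 for this contrast, against 5.57% of all miRNAs, and the only one lower in Trim71-/- on all days of clone 1 and higher on both days of clone E3, against 4.05%. Within clone 1 it was also the only member lower past the thresholds of the study, against 8.45%, and no member was higher past them in clone E3, against 0.676%. In a fit of clone E3 alone, on 2 pairs, the change of 2.52 in miR-34a-3p did pass them, and 36 of all 592 miRNAs passed. On untransformed values as inferred before the floor, the mean difference was -29.7 normalized read counts in clone 1 and 30.4 in clone E3. The inferred values were -7.69 in Trim71-/- on day 5 and -9.26 in Trim71fl/fl on day 4. On that scale the clone difference had a limma p of 0.0712, with the scale and the floor changed together. Without the pair of day 4 it fell to 3.16 and did not pass an unadjusted p of 0.05 by limma, with clone E3 then represented by 1 pair. With a pseudocount of 10 it was 2.80. The difference of miR-34a-5p became 3.05 when day 3 was left out and 0.75 when day 4 was, each of which leaves clone E3 with 1 pair, assumed to vary like those of clone 1. The exact permutation of clone labels over the 5 differences gave 0.1 for both arms of miR-34a, the smallest p that 10 assignments allow, so that this test could not pass 0.05.

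The miR-34b and miR-34c hairpins had smaller fitted clone differences, with wide intervals. The difference of E3 minus clone 1 was 0.83 (interval -3.02 to 4.69) for miR-34b-5p, -0.50 (-2.27 to 1.27) for miR-34b-3p, 0.30 (-1.90 to 2.50) for miR-34c-5p and 0.66 (-1.38 to 2.70) for miR-34c-3p, and their unadjusted limma p-values ran from 0.448 to 0.743. Whether the clone difference of miR-34a is itself larger than that of miR-34b and miR-34c was not tested. Over the whole table, 1 miRNA had an adjusted limma p under 0.05 for the clone difference (smallest Benjamini-Hochberg adjusted p 0.0293).

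**Figure D4:**
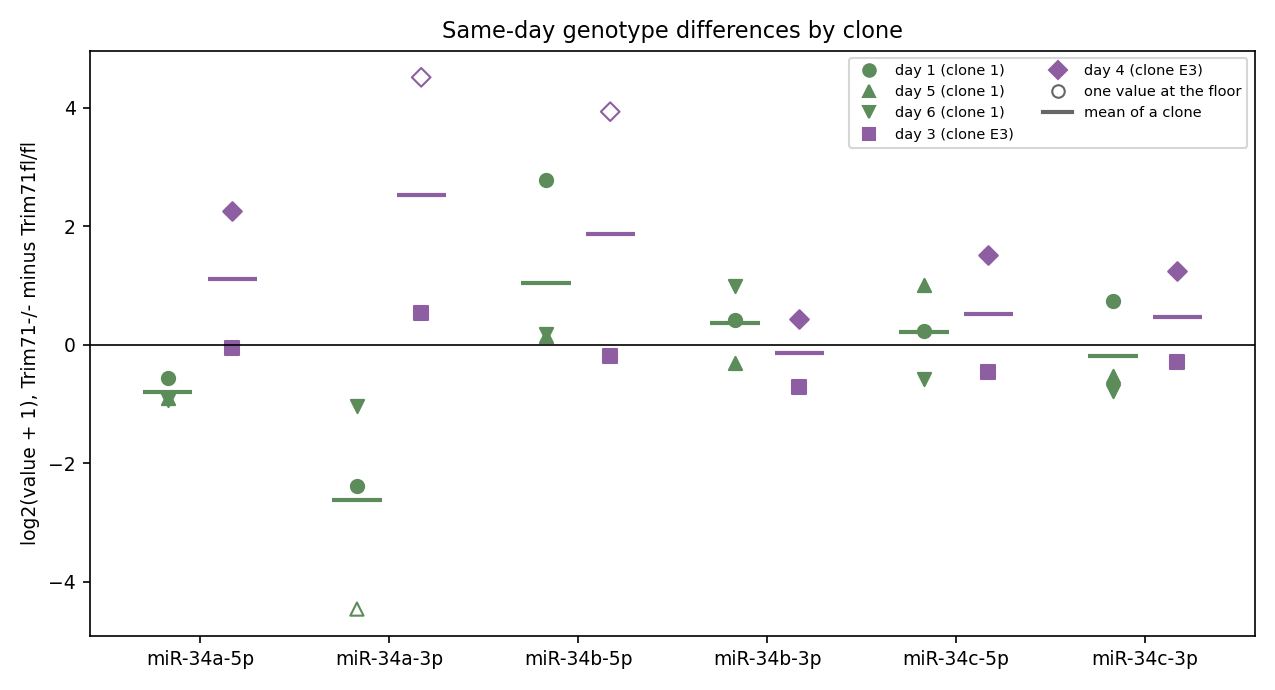
Difference in log2(value + 1) between the Trim71-/- and the Trim71fl/fl library of each day for the 6 miR-34 miRNAs, with clone 1 (days 1, 5 and 6) in green and clone E3 (days 3 and 4) in purple. Bars are clone means, and open symbols have 1 value at the floor of 1. Both arms of miR-34a lie below 0 on all days of clone 1, and day 4 (diamonds) is above 0 for all 6.

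Arms of the same hairpin had differences of the same sign on 4 of 5 days in each case, the exception being day 3 for miR-34a and day 5 for miR-34b and for miR-34c. The 5p arms of miR-34b and miR-34c, which come from the same transcript, went the same way on 4 of 5 days, and so did their 3p arms, with day 6 the exception for both. miR-34a-5p and miR-34c-5p went the same way on 3 of 5 days. These counts depend on the scaling, since division by the library sum shifts all miRNAs of a day together. After that division the arms agreed on 4 days for miR-34a, 4 for miR-34b and 5 for miR-34c. The 5p arms of miR-34b and miR-34c then agreed on 5 days, their 3p arms on 4, and miR-34a-5p and miR-34c-5p on 4. No such counts were made for other miRNAs. The ratio of 5p to 3p was taken as (5p + 1) over (3p + 1), on the days on which neither arm was at the floor, and the added 1 pulls the ratios of low arms toward 1. On this scale miR-34a had 97.9 times as much 5p as 3p (geometric mean, 62.5 to 221 over 3 days), and miR-34c had 54.2 times as much (30.8 to 89.1 over 5 days). miR-34b had the reverse bias, with 0.201 as much 5p as 3p (0.0640 to 0.331 over 4 days). The log2 ratio of 5p to 3p was higher in Trim71-/- than in Trim71fl/fl cells by 0.45 for miR-34a (exact permutation p = 0.75, smallest possible 0.25), by 0.64 for miR-34b (p = 0.5, smallest possible 0.125) and by 0.27 for miR-34c (p = 0.625, smallest possible 0.0625), each within the spread over days. For miR-34a the difference depended on the added value, at 0.53 with 0.1 and 0.08 with 10, and for miR-34b it was 0.72 and 0.30, and 0.06 without day 1. Across the shared transcript, miR-34b-3p stood at 0.0340 of miR-34c-5p (0.0186 to 0.0556 over 5 days), with a genotype difference of -0.18 on the log2 scale (exact permutation p = 0.875).

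The miRNAs whose day-to-day differences were most like those of single members were then listed. Likeness was measured as the root mean square (RMS) distance between the 5 same-day log2 differences of a member and those of each of the 591 other miRNAs, for the 4 members with no value at the floor. Nearest to miR-34a-5p were miR-335-5p (RMS 0.245), miR-194-5p (0.286) and miR-30b-5p (0.317), where the median miRNA was at 1.58. Of the family, miR-34c-3p ranked 37 by likeness to miR-34a-5p, miR-34c-5p 95 and miR-34a-3p 423. Nearest to miR-34c-5p were miR-335-3p (0.276), miR-181c-3p (0.391) and miR-27b-3p (0.402), with a median of 1.30 and miR-34c-3p at rank 42. Nearest to miR-34c-3p were miR-129-2-3p (0.285), miR-7a-2-3p (0.285) and miR-872-3p (0.287), with a median of 1.32 and miR-34c-5p at rank 76. Nearest to miR-34b-3p were miR-425-3p (0.412), miR-450a-1-3p (0.431) and miR-149-5p (0.443), with a median of 1.19, miR-34c-3p at rank 181 and miR-34b-5p at rank 454. These distances rest on the same 5 pairs and are a description.

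The seed relative miR-449a-5p, the only miR-449 row, had values of 49.0, 57.3, 50.8, 23.8 and 50.2 in Trim71-/- and 42.1, 33.9, 40.3, 67.3 and 40.9 in Trim71fl/fl cells on days 1, 3, 4, 5 and 6. It was higher in Trim71-/- on 4 of 5 days and lower on day 5, also after division by the library sum. Its log2 fold change was 0.02 ± 0.38 (SE, limma, Benjamini-Hochberg adjusted p = 0.991), and its mean log2 difference after that division was -0.24.

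Of 23 other miRNAs known to be induced by p53 or processed with its help, 16 were listed. One passed the thresholds of the study and was higher (0.845% of all miRNAs), none was lower (4.56% of all), and 12 had a positive and 4 a negative fitted change, against 303 and 289 of all miRNAs, with a median log2 fold change of 0.29 where all miRNAs had 0.03. The one that passed was miR-200c-3p, which holds back Zeb1 and Zeb2 and so protects the epithelial state. It was higher in Trim71-/- on 5 of 5 days, at 4233 ± 241 against 2697 ± 241 (SD, n = 5), with a log2 fold change of 0.65 ± 0.23 (SE, limma, Benjamini-Hochberg adjusted p = 0.607). After division by the library sum it was higher on 4 of 5 days, with a mean log2 difference of 0.38, which is under the threshold of 1.5-fold. The largest fitted changes of the list, none of which passed, were 1.00 for miR-194-2-3p, 0.99 for miR-16-2-3p and 0.85 for miR-200c-5p. The mean was -0.08 for miR-16-2-3p without day 4 and 0.14 for miR-200c-5p without day 3, so that these rest largely on 1 pair, and it was 0.57 for miR-194-2-3p without day 1. Both miR-194-2-3p and miR-200c-5p reach the filter of 10 in Trim71-/- alone, the genotype where they are higher. Over the 10 libraries their means were 8.84 and 11.9. An unadjusted limma p under 0.05 for the clone difference was reached by 3 of the 16, miR-200c-5p (3.04), miR-15a-5p (2.54) and miR-16-5p (2.31), against 5.57% of all miRNAs, the last pair named after their values were seen. In clone E3 the log2 differences of days 3 and 4 were 0.01 and 2.23 for miR-15a-5p and 0.03 and 1.5 for miR-16-5p. Those of miR-200c-5p were 3.69 and 1.66, the first with a value at the floor.

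In the other direction of the pathway, all 6 miRNAs known to target the p53 mRNA were listed. Of these 1 passed the thresholds, as a decrease, against 4.56% of all miRNAs lower past them. miR-380-5p, of the imprinted Dlk1-Dio3 cluster, was lower in Trim71-/- on 4 of 5 days, at 7.37 ± 7.06 against 26.5 ± 8.16 (SD, n = 5), and 2 of its Trim71-/- values were at the floor. It reaches the filter of 10 by its Trim71fl/fl mean alone, though its mean over the 10 libraries, 17.0, is also above 10. Its log2 fold change was -2.18 ± 0.73 (SE, limma, Benjamini-Hochberg adjusted p = 0.607). That of the other arm, miR-380-3p, was -2.41. In the same cluster it was -2.83 for miR-379-5p, -0.97 for miR-379-3p, -3.99 for miR-410-3p and -2.04 for miR-410-5p. The rest of the cluster is not reported here. For the other 5 miRNAs known to target the p53 mRNA, the fitted log2 fold change was 0.67 for miR-125b-5p, 1.47 for miR-504-5p, 0.05 for miR-25-3p, 0.37 for miR-30d-5p and -0.15 for miR-33-5p. Their limma p-values ran from 0.112 to 0.846. After division by the library sum the mean differences were 0.40, 1.25, -0.22, 0.10 and -0.42 in the same order, and that of miR-504-5p was 0.77 as deposited without day 5. The p53 mRNA and protein were not analysed here.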

How the data were processed

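Small RNA was sequenced from 11 libraries of mES cells. Per the Methods of the study, the authors trimmed the reads, aligned them with Bowtie2 (2.2.1) against miRBase and mm10, counted them per miRNA in Partek (6.6), normalized with DESeq2, removed batch effects, raised all values under 1 to 1 and dropped miRNAs whose larger group mean was under 10. The deposited values are thus a signal, in units of normalized reads, and the depth of each library is unknown.

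Genotypes were compared in the 5 same-day pairs by limma 3.58.1 under R 4.3.3, using lmFit and eBayes with no trend. The model held genotype plus day, was fitted to log2(value + 1) of all 592 miRNAs, and Benjamini-Hochberg adjustment ran over all of them. A second fit had a genotype effect per clone. Fold changes are on the log2(value + 1) scale, which understates changes of low miRNAs. Single values were tested by exact two-sided permutation of genotypes within days or of clones over days. The pairing comes from the day and clone in the labels and from a day and clone term in the study's supplementary statistics. Within a day, the libraries' departures from their genotype's mean had correlations of -0.65 to -0.41 over miRNAs, a sign that the equal same-day sums impose. The fit was tested on simulated data.

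The miRNAs named are the 6 members, miR-449 rows, 2 lists of p53-related miRNAs (of the first, those past the thresholds and the 3 of largest fitted change, with miR-15a-5p and miR-16-5p added after their values were seen), the 3 nearest miRNAs by same-day differences, and cell type markers (stem cell, neural, fibroblast, blood and liver). Members and lists were chosen with earlier results of these data known. miR-380-3p and both arms of miR-379 and miR-410 were added after their values were seen. Alternatives were a fit without the replicate block, the clone as factor instead of the day, use of all 11 libraries, omission of each pair, each clone alone, other scalings, pseudocounts of 0.1 and 10, untransformed values and a mean of at least 100. Fits before the floor, on values inferred from the constant same-day sums, and without floored miRNAs were added after the data were seen. Sequences came from RefSeq tables and positions from GENCODE M21, both on GRCm38. Plots were drawn with matplotlib 3.10.9.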

Additional observations from a re-analysis of the deposited data

Results flagged for a closer look

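The same-day log2 differences of miR-34a-5p hold 1 pair far from the others. The gap between day 4 (2.25) and the nearest other day (-0.05) is 0.724 of the whole range, above Dixon's 95% critical value for 5 values. On untransformed values the ratio was 0.695 in either genotype, under that value. Of 18 sets of 5 values examined, which are not independent since the genotypes mirror each other, it was the only one above, and chance puts about 1 in 20 sets there. Without the pair of day 4 the log2 fold change of miR-34a-5p was -0.61.

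The fitted genotype effects on miR-34a-3p in the 2 clones were 5.15 apart on the log2 scale (limma, unadjusted p = 0.0199, Benjamini-Hochberg adjusted p = 0.627), with a decrease in Trim71-/- on 3 of 3 days of clone 1 and an increase on 2 of 2 days of clone E3. The exact permutation of clones cannot go below 0.1. Of the 5 same-day pairs, 2 have a value at the floor. On untransformed values as inferred before the floor, where the scale and the floor changed together, the difference did not pass an unadjusted limma p of 0.05. Without the pair of day 4 it was 3.16.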

How the results depend on the processing

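The values rest on 5 pairs of unknown depth, with days nested in clones, and on a deposited batch correction that could not be undone. The causes of the shifts below were not tested. Leaving out each pair in turn gave genotype log2 fold changes of -0.61 to 0.19 for miR-34a-5p, -1.84 to 0.41 for miR-34a-3p, 0.73 (without day 4) to 1.76 for miR-34b-5p, -0.045 to 0.38 for miR-34b-3p, 0.048 (without day 4) to 0.57 for miR-34c-5p and -0.22 to 0.29 for miR-34c-3p. Without day 1 they were 0.09 for miR-34a-5p and -0.09 for miR-34c-3p. Clone E3 alone gave 1.10 for miR-34a-5p, 2.52 (past the thresholds) for miR-34a-3p and -0.14 for miR-34b-3p, and clone 1 alone -2.63 (past the thresholds) for miR-34a-3p and -0.19 for miR-34c-3p. Division by the library sum gave -0.31 for miR-34a-5p, 0.07 for miR-34c-5p, -0.10 for miR-34b-3p and -0.19 for miR-34c-3p. Without the replicate block miR-34b-5p passed the thresholds at 1.37, and with all 11 libraries at 1.32. Fits without the day term treat the libraries of a pair as independent, although their values mirror each other by construction. In the fit of all 11, the library of day 2 is itself a mean of the other Trim71fl/fl libraries before the floor. The number of miRNAs past the thresholds was 32 in the paired fit (5 higher, 27 lower). It was 101 without the replicate block, 93 with clone in place of day, 116 with all 11 libraries, 59 in clone 1 alone and 36 in clone E3 alone. It was 50 after division by the library sum (2 higher, 48 lower) and 15 with a mean of at least 100. With a pair left out it was 16 to 67 (16 without day 1, 19 without day 6, 67 without day 4). Clone differences with a pair left out ran from 0.75 to 3.05 for miR-34a-5p, 3.16 to 7.14 for miR-34a-3p, -1.23 to 2.89 for miR-34b-5p, -1.07 to 0.065 for miR-34b-3p, -0.69 to 1.29 for miR-34c-5p (-0.10 without day 6) and -0.11 to 1.43 for miR-34c-3p. That of miR-34a-5p passed an unadjusted p under 0.05 without day 3 (3.05, with clone E3 left as 1 pair that is assumed to vary like clone 1), after division by the library sum (2.42), with a pseudocount of 10 (1.89) and without the replicate block (1.90). That of miR-34a-3p, 60.0 normalized read counts on untransformed values as inferred before the floor, did not pass there, where the scale and the floor changed together. With a pseudocount of 10 it was 2.80 and passed an unadjusted limma p of 0.05, and the genotype change of miR-34b-5p at that setting was 0.68. The clone difference of miR-34b-3p became 0.007 after division by the library sum. The number of miRNAs with a clone difference, 33, was 123 without the replicate block, and 11 (without day 4) to 74 (without day 3) with a pair left out. Genotype differences in the log2 ratio of 5p over 3p with a pair left out ran from -0.23 (without day 1) to 0.97 for miR-34a, from 0.06 (without day 1) to 1.12 for miR-34b and from -0.052 (without day 5) to 0.46 for miR-34c, and changed sign without day 4 (0.048) or day 5 (0.11) for miR-34b-3p over miR-34c-5p. No other call of the 6 miRNAs changed with the replicate block.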
